A study of Mus musculus with 6 samples.

Results

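The 9 genes described here encode the chains of the mouse MHC class II pathway. They are the classical chains H2-Aa, H2-Ab1 and H2-Eb1, the peptide exchange factor chains H2-DMa, H2-DMb1 and H2-DMb2, the modulator chains H2-Oa and H2-Ob, and the invariant chain Cd74. They were taken by name from 26754 genes in the deposited tables, and all 9 were present. The libraries were made from polyadenylated RNA of cells pulled from B16 melanomas with CD8a magnetic beads, in female C57BL/6J mice of 6 to 8 weeks that carried B16 cells under the skin of 1 flank. Both groups share this strain, tumour and selection, and differ in the time after implantation, day 7 (3 libraries) or day 14 (3 libraries). The labels do not say that the replicates came from separate animals, so the p-values measure only the spread between these samples, which may be technical.

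Class II molecules present peptides from endosomes to CD4 T cells. They are made mainly by dendritic cells, macrophages and B cells, and other cells can make them after interferon gamma induces the transactivator Ciita. The invariant chain escorts new α and β chains to endosomes, H2-DM exchanges its remnant for peptide, and H2-DO, found mostly in B cells and some dendritic cells, restrains H2-DM. Mouse T cells make little class II, so these transcripts in a CD8a selection are read beside the markers of other cells. C57BL/6 mice carry a defective H2-Ea gene, so they lack a surface I-E molecule although H2-Eb1 is transcribed.

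The chain genes on chromosome 17 share a promoter module to which the RFX and NF-Y complexes are known to bind, and its sequence is shown because these genes are treated here as a group. RefSeq windows of 300 bases around the start site (GRCm38.p6, 250 bases before to 50 after) were found for 7 of the 9 members. H2-Ab1 and Cd74 were not matched. The letters TGATTGG, the reverse complement of the CCAAT box with its flanks, occurred in 6 of these 7 members, against 7.82% of 32841 windows searched on both strands. In the same 6 members AAC began 25 to 30 bases before TGATTGG, which 0.618% of all windows held. The motifs and the distance were chosen after the sequences had been read, and a first range of 27 to 35 bases took in 5 members and 0.91% of windows. In the stretches of 52 bases below, 5′ to 3′ on the gene's own strand, capitals mark AAC and TGATTGG.
H2-Aa: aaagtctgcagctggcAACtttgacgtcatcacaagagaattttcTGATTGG
H2-Eb1: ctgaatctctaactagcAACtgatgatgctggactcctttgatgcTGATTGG
H2-DMb1: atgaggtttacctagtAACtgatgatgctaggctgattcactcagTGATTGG
H2-DMb2: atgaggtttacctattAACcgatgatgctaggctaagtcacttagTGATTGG
H2-Oa: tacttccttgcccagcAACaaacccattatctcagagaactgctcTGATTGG
H2-Ob: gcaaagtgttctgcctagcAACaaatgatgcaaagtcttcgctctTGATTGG

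These stretches lie at chr17:34287867-34287918 (minus strand) for H2-Aa, chr17:34305761-34305812 for H2-Eb1, chr17:34153083-34153134 for H2-DMb1, chr17:34145112-34145163 for H2-DMb2, chr17:34092289-34092340 for H2-Oa and chr17:34238801-34238852 for H2-Ob, all of these on the plus strand. TGATTGG began between 45 bases (H2-Oa) and 92 bases (H2-DMb2) before the start site. The stretches of H2-DMb1 and H2-DMb2 were identical at 47 of 52 bases (90.4%). Neither of the 2 RefSeq windows of H2-DMa held TGATTGG, and the deposited H2-DMa model starts downstream of both, at base 34135182 against start sites at 34122832 and 34125518. A match in a window is a description of its letters, not a site of binding.

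Values are RPKM, reads per kilobase of gene model scaled to the reads a library holds in genes, which put different genes on a scale per length. Most genes with few reads held an even number of them (75.6% to 87.7% of genes with 1 to 20 reads, by library), so 2 reads mostly stand for 1 sequenced fragment. The libraries held 6523019 to 9313078 reads in genes on day 7 and 11385106 to 13316522 on day 14. Genes with a read numbered 13133 to 13806 on day 7 and 18318 to 19053 on day 14. Day 7 replicates 1 and 2 differed by little more than sampling noise (median chi-square ratio per fragment of 2 reads 1.11, where 1 is noise alone). Replicate 3 differed from both at ratios of 40.9 and 44.4, and the day 14 libraries from each other at 4.05 to 4.43. The first pair was for that reason entered as its mean, as 1 sample, leaving 2 samples on day 7 and 3 on day 14. Day 7 replicate 3 stood apart, and values that turn on it are given with and without it. The 10 markers listed for CD8 T cells, Cd8a and Cd8b1 among them, were detected on both days, but all 10 were lower on day 14 in all 3 libraries. Over all genes tested 17.8% were lower in this way. Of the 10 markers 5 fell past the test, beside 1.79% of all genes tested, and these calls depended on the filter for low values, as given below. The summed RPKM of the T cell markers was 498 to 516 on day 7 and 132 to 139 on day 14. Melanoma markers summed to 5531 to 5736 and 10233 to 11257, so the selected cells were mixed with tumour RNA on both days. In bulk libraries of this kind, fewer cells of a type and less RNA per cell cannot be told apart.

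H2-Ab1, the β chain of I-A, had the highest level of the 9 members in every library. It stood at 806, 753 and 938 RPKM in day 7 replicates 1 to 3 and at 568, 533 and 564 in the day 14 replicates. All 3 day 14 libraries lay below all 3 day 7 libraries. Its day 7 mean was 859 ± 112 (SD, n = 2), and its day 14 mean of 555 ± 19.3 (SD, n = 3) was 1.55-fold lower. The log2 change was -0.62 (SE 0.15, 95% interval -0.96 to -0.29), with an adjusted p of 0.0534 by limma over 6691 tested genes, so it did not pass the threshold of 0.05.

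Cd74 came next in level. Its RPKM values were 658, 625 and 512 on day 7 and 372, 379 and 384 on day 14, again without overlap between the days. Here the lowest day 7 library was replicate 3, the library in which H2-Ab1 was highest. The log2 change was -0.60 (SE 0.16, 95% interval -0.95 to -0.25, adjusted p = 0.0737), from a mean of 577 ± 91.6 (SD, n = 2) to 378 ± 5.99 (SD, n = 3).

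H2-Eb1 was the member that fell past the test. This β chain gene read 449.9, 462 and 527 RPKM on day 7 and 244, 251 and 244 on day 14, so every day 14 library was below every day 7 library. Its mean dropped from 491 ± 50.0 (SD, n = 2) to 247 ± 4.20 (SD, n = 3), 1.99-fold, and the log2 change was -0.99 (SE 0.16, 95% interval -1.35 to -0.62, adjusted p = 0.0102, limma). On day 7 the ranges of Cd74 and H2-Eb1 overlapped, whereas on day 14 the order H2-Ab1, Cd74, H2-Eb1 held in all 3 libraries with no overlap.

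H2-Aa encodes the α chain that pairs with H2-Ab1 in equal numbers at the protein level. Its transcript stood at 40.6, 37.7 and 66.5 RPKM on day 7 and 27.0, 36.2 and 30.2 on day 14. The days did not overlap, but the highest day 14 library was close to the lowest day 7 library. The log2 change of -0.71 (SE 0.35, 95% interval -1.48 to 0.06) had an adjusted p of 0.306.

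**Figure D1:**
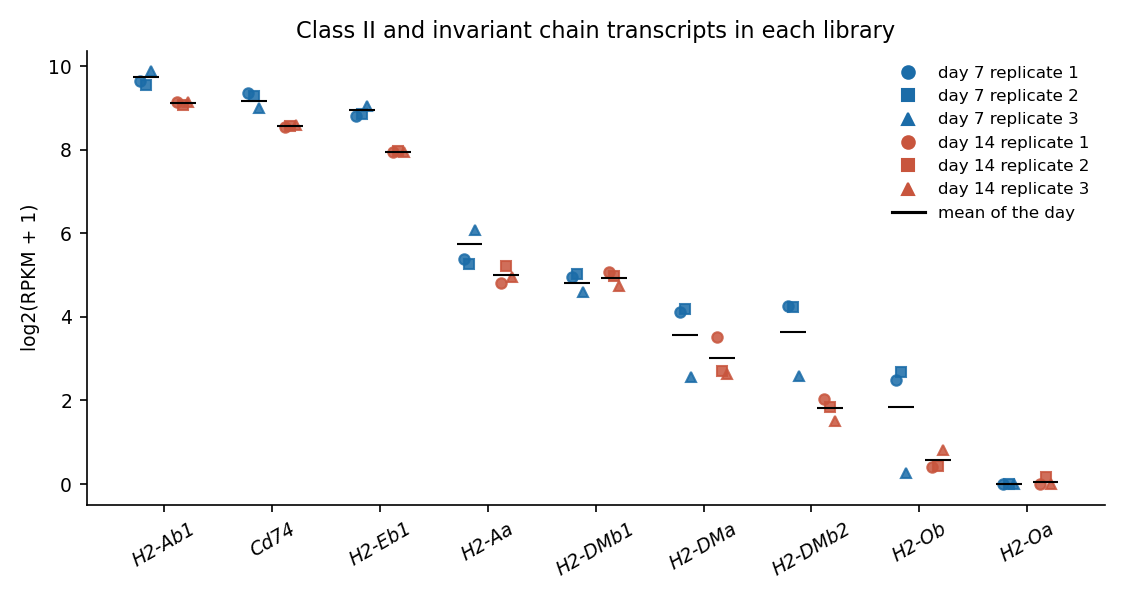
Level of each of the 9 members in each library, as log2(RPKM + 1), with day 7 in blue, day 14 in red, one symbol per replicate and a bar at the mean of the day (2 samples on day 7, with replicates 1 and 2 averaged, and 3 on day 14). H2-Ab1, Cd74, H2-Eb1, H2-Aa and H2-DMb2 show no overlap between the days.

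Of the 5 members with a mean of at least 20 CPM (reads scaled to a common library size, before division by length), which were the ones tested, 1 fell (H2-Eb1), 0 rose and 4 did not pass. Among all 6691 genes tested 3.27% passed, 1.79% in the falling direction. The 3 libraries of day 14 lay wholly below those of day 7 for 4 of the 5 tested members and wholly above for 0, against 17.8% and 31.6% of all genes tested. The median log2 change was -0.62 over these 5 members and 0.16 over all genes tested. How many members passed depended on how the variance was modelled. With the variance trend fitted to the mean of each day alone, the form run first, 3 of 5 members fell. Their adjusted p by limma was 0.00269 (H2-Ab1), 0.000426 (H2-Eb1) and 0.0103 (Cd74). That form passed 327 of 6691 genes, 213 of them falling. The form reported here was chosen after that result had been seen. The simulated data behind the choice drew from the same kind of trend and cannot decide between forms. With no filter 58 of 22716 genes passed and by limma-voom 2145 of 6691, so the settings differ in strictness. Over 16 alternatives that kept the RPKM scale or rescaled it by median of ratios, H2-Eb1 fell in 16, H2-Ab1 in 13 and Cd74 in 7, and all 3 log2 changes were below 0 in each of the 16.

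Without day 7 replicate 3, the single day 7 sample is assumed to vary like day 14, so only the size of a change is given. The log2 changes were then -0.49 for H2-Ab1, -0.88 for H2-Eb1, -0.76 for Cd74 and -0.33 for H2-Aa. The sign of the members' values depends on the reference. Scaled to the summed CD8 T cell markers, the log2 changes of all 5 tested members were above 0 (H2-Eb1 0.93, H2-Ab1 1.30, Cd74 1.32, H2-Aa 1.16, H2-DMb1 1.98), where the summed markers were 3.80-fold lower. That scaling moves every gene alike, to a median of 1.87 over all genes tested, and 4 of the 5 members lay below this median and H2-DMb1 above it. Scaled to macrophage markers, H2-Eb1 stood at -1.56, H2-Ab1 at -1.19, Cd74 at -1.17, H2-Aa at -1.26 and H2-DMb1 at -0.42, beside a median of -0.36 for all genes.

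**Figure D2:**
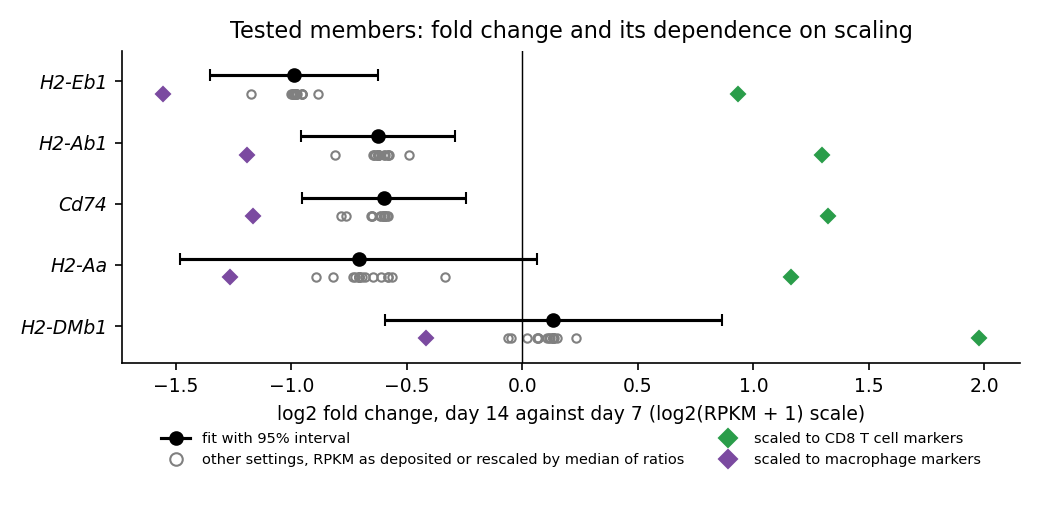
Log2 change from day 7 to day 14 of the 5 tested members, with the fit on log2(RPKM + 1) and its 95% interval as a bar. The 16 other settings are open circles, and the values scaled to 2 marker lists are diamonds. Among the open circles, those for a pseudocount of 0.1 or 5 and for limma-voom on recovered reads are on other log2 scales. All 5 diamonds for CD8 T cell scaling lie above 0, and the other points of H2-Eb1, H2-Ab1, Cd74 and H2-Aa lie below 0.

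The H2-DM chains did not move as a set. H2-DMb1, a β chain of the peptide exchange factor, read 30.2, 31.7 and 23.3 RPKM on day 7 and 32.8, 30.8 and 25.7 on day 14, and the days overlapped. Its log2 change was 0.13 (SE 0.33, 95% interval -0.60 to 0.86, adjusted p = 0.872), with the sign turning to -0.063 without day 7 replicate 3 and to -0.048 under median-of-ratios scaling. The interval admits changes in both directions.

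H2-DMb2, the neighbouring β chain gene, was below the filter, and where the filter was lowered to 5 CPM or left out it did not pass (adjusted p = 0.327 and 0.390, limma). Its RPKM was 18.2, 17.8 and 5.02 on day 7 and 3.13, 2.61 and 1.84 on day 14. Each day 14 library was below each day 7 library, as was so for 17.8% of all tested genes, but day 7 replicate 3 lay nearer to day 14 than to its own replicates. The difference of means on the log2(RPKM + 1) scale was -1.62 with that library and -2.45 without it. Behind these values stand 56 to 284 reads per day 7 library and 42 to 61 per day 14 library. Of the 75-base windows along the transcripts, 16.1% for H2-DMb2 and 19.1% for H2-DMb1 also occur in other genes, chiefly in the other of this pair, so reads of the pair may have been divided between them. For the other 7 members no window was shared.

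H2-DMa, the α chain of the same factor, read 16.4, 17.3 and 4.86 RPKM on day 7 and 10.4, 5.53 and 5.22 on day 14. It was also below the filter, and did not pass with 5 CPM or no filter (adjusted p = 0.871 and 0.789). The days overlapped, with day 7 replicate 3 the lowest of the 6 libraries and the spread within day 7 wider than the distance between the means, 10.8 ± 8.46 (SD, n = 2) and 7.04 ± 2.90 (SD, n = 3). The log2 difference was -0.40 with day 7 replicate 3 and -1.20 without it.

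Of the 2 H2-DO chains, H2-Ob was detected mainly in 2 day 7 libraries. It stood at 4.62 and 5.41 RPKM in day 7 replicates 1 and 2, at 0.194 in replicate 3, and at 0.334, 0.353 and 0.762 on day 14. Replicate 3 was thus the lowest of all, and the days overlapped. The log2 difference was -0.87 with it and -2.03 without it, and the adjusted p with no filter was 0.532. H2-Oa was listed at 0 in 5 libraries and at 0.121 RPKM, from 2 reads, in day 14 replicate 2, and its model overlaps BC051537 on the other strand, so at this depth no difference in H2-Oa was detectable.

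Within day 7, H2-Ob, H2-DMb2, H2-DMa, H2-DMb1 and Cd74 were each lowest in replicate 3, while H2-Aa, H2-Ab1 and H2-Eb1 were each highest there. Markers of several cell types also differed between the day 7 libraries. Summed RPKM of the 11 dendritic cell markers was 61.6, 58.9 and 28.2 on day 7 and 28.4 to 34.2 on day 14. In replicate 3, 7 of these 11 were the lowest of day 7 and 4 (Flt3, Zbtb46, Clec9a, Cd209a) the highest. Xcr1 and Ccl22 were at 0 in replicate 3, and Clec9a and Cd209a in replicates 1 and 2. The day 7 libraries held fewer genes with a read, so a 0 there does not show absence. Some ranks rest on values near the floor, such as Flt3 at 0.041, 0.035 and 0.050 RPKM in day 7 replicates 1 to 3. Of the 10 macrophage markers 7 were also lowest in replicate 3, among them Mertk (6.25, 7.18 and 0.212 RPKM), and 2 (C1qa, C1qb) were highest. Of the 3 plasmacytoid dendritic cell markers, Siglech read 5.04, 4.82 and 0 RPKM on day 7, Tcf4 0.495, 0.510 and 0.750, and Ccr9 was at 0 in all 3 day 7 libraries. The 7 B cell markers summed to 3.36, 2.98 and 15.8 on day 7 and 1.82 to 3.23 on day 14. In replicate 3, 6 of the 7 were highest and Cd79a was at 0, and Fcrla alone gave 8.26 of the 15.8, while Blk and Fcrla were at 0 in replicates 1 and 2. The part of any of these cell types in the values of the members was not tested.

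Ratios between members within a library do not depend on the scaling of that library. They were picked after the values had been seen, and an exact permutation test (two-sided) of 2 against 3 samples cannot give a p below 0.1, so they are descriptions. H2-Eb1 was 55.8%, 61.3% and 56.1% of H2-Ab1 on day 7 and 42.9%, 47.2% and 43.4% on day 14, without overlap (log2 difference -0.37, p = 0.1 by the exact permutation test). H2-Aa was 4.74% to 7.09% of H2-Ab1 over all 6 libraries, with the days overlapping. Whether the annotation, the mapping or the counting of H2-Aa lowers its RPKM could not be settled from the files, so this ratio may not be one of transcript levels.

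Cd74 was 33.4% to 50.7% of the summed H2-Aa, H2-Ab1 and H2-Eb1 on day 7 and 44.3% to 46.2% on day 14, and the days overlapped. The overlap rests on day 7 replicate 3 (33.4%), since replicates 1 and 2 (50.7% and 49.9%) lay above all 3 day 14 libraries, and the log2 difference of 0.15 turned to -0.15 without it. H2-DMb1 was 2.49% to 4.21% of H2-Ab1 on day 7 and 4.56% to 5.78% on day 14, without overlap. Its log2 ratio to H2-Ab1 was 0.76 higher on day 14, or 0.43 higher without day 7 replicate 3. H2-DMb2 made up 60.2%, 56.3% and 21.5% of the H2-DMb1 level on day 7 and 9.56%, 8.47% and 7.18% on day 14. The log2 difference of that ratio was -2.08, and -2.80 without day 7 replicate 3. H2-DMa was 17.1% to 34.9% of both DM β chains together on day 7 and 16.6% to 28.9% on day 14, with overlap.

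**Figure D3:**
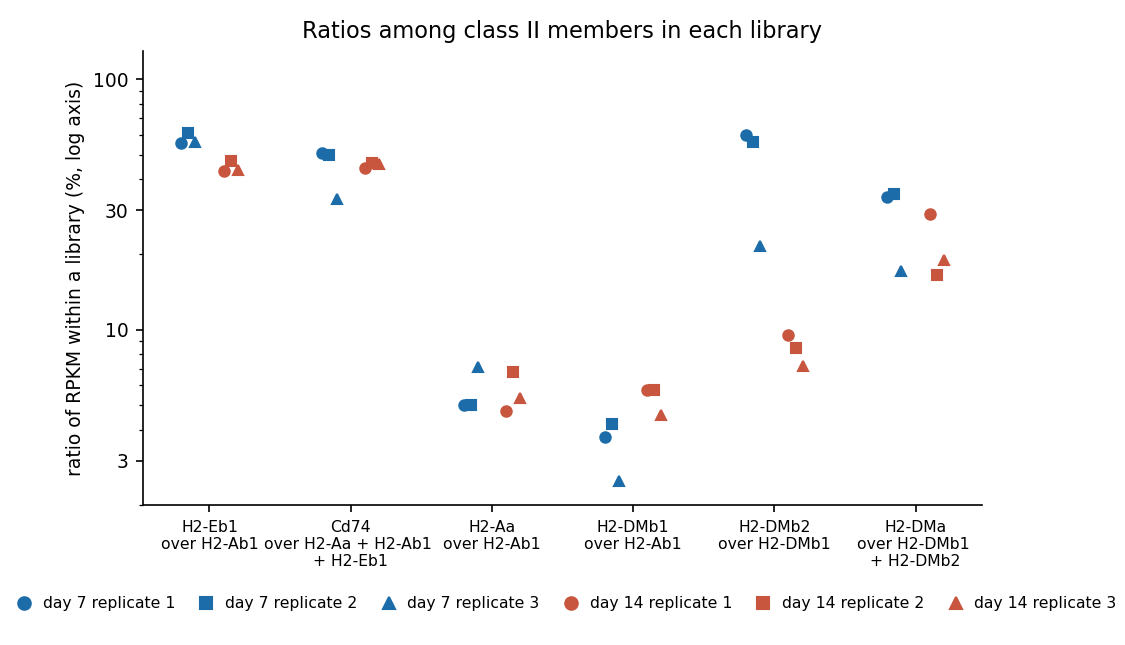
Ratio of one member's RPKM to another's within each library, in percent on a log axis, with day 7 in blue, day 14 in red and one symbol per replicate. H2-Eb1 over H2-Ab1 and H2-DMb2 over H2-DMb1 were lower on day 14 in all 3 libraries, H2-DMb1 over H2-Ab1 was higher, and the other 3 ratios overlapped.

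The 9 members together summed to 1950 to 2077 RPKM on day 7 and 1239 to 1258 on day 14, a 1.62-fold lower level. H2-Ab1, Cd74 and H2-Eb1 gave most of this sum (806, 658 and 450 of 2024 RPKM in day 7 replicate 1). In day 14 replicate 1 they gave 568, 372 and 244 of 1258. The member sum and its ratios below thus mainly describe these 3 genes, and the H2-DM and H2-DO chains carry little weight in them. The macrophage markers summed to 628 to 717 RPKM on day 7 and 957 to 1002 on day 14, 1.48 times the day 7 level, and Apoe alone gave 491 to 521 and 682 to 732 of these sums. Of 9 tested macrophage markers 4 rose (Csf1r, C1qa, C1qb, Mrc1), beside 1.48% of all tested genes in that direction. The calls of Csf1r and Mrc1 were lost under median-of-ratios scaling (adjusted p 0.0687 and 0.0585), without day 14 replicate 1 (0.0640 and 0.0517) and without replicate 2 (0.0684 and 0.0620). That of Csf1r was also lost without day 14 replicate 3 (0.0607) and with the variance trend of each day alone (0.0580). That of Mrc1 was also lost without weights (0.0558). With a filter of 5 CPM (adjusted p 0.0573 to 0.111) or none (0.138 to 0.233) all 4 calls were lost. The other 5 tested, Cd68, Apoe, C1qc, Adgre1 and Fcgr1, did not pass, with log2 changes from 0.64 (Cd68) down to -0.54 (Fcgr1). Relative to that sum the members were lower on day 14 by a log2 difference of -1.27, with no overlap. Relative to the CD8 T cell markers they were higher by 1.23, also with no overlap. All 12 marker lists were compared. The log2 differences were 1.85 for NK cell, -1.43 for monocyte, -2.51 for neutrophil and -1.64 for melanoma markers, where the days did not overlap. The exact permutation p was 0.1, the smallest possible, for these and the former 2. The monocyte sum rose mainly through Fn1 (mean 8.98 RPKM on day 7, 34.2 on day 14) and also Vcan, while Ly6c2 and Ccr2 were lower on day 14. In the neutrophil sum S100a9 (6.79 and 41.7) rose most, while S100a8 (4.39 and 4.46) overlapped. Dct gave most of the melanoma sum (4527 and 9110), and Pmel overlapped. The days overlapped for the dendritic cell (-0.27), plasmacytoid dendritic cell (-0.61), B cell (0.76), CD4 T cell (-0.23), fibroblast (-0.35) and endothelial (-0.44) lists. Without day 7 replicate 3 the sign turned for the dendritic cell (0.31), plasmacytoid dendritic cell (0.85) and B cell (-0.36) lists. The direction of the difference thus varied with the cell type used as reference, and which cells carried the transcripts was not tested.

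**Figure D4:**
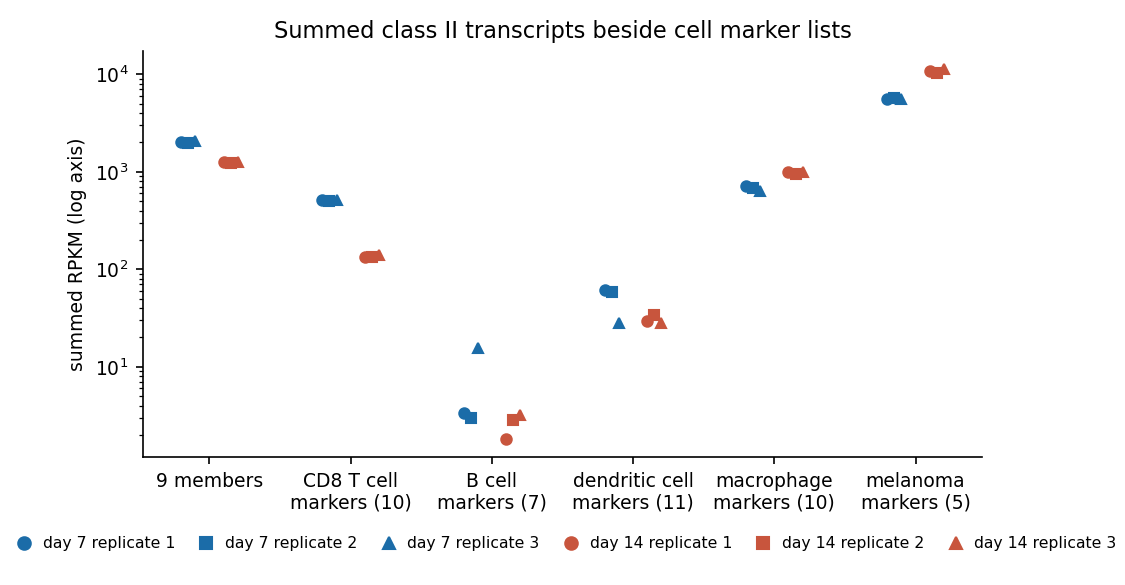
Summed RPKM of the 9 members and of 5 marker lists in each library on a log axis, with the number of genes in each list in brackets, day 7 in blue and day 14 in red. The members and the CD8 T cell markers were lower on day 14, the macrophage and melanoma markers were higher, and the B cell and dendritic cell lists overlapped.

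The regulators of these genes were read from a list of the class II pathway. Ciita, the transactivator that class II transcription requires, read 7.19, 7.05 and 6.94 RPKM on day 7 and 6.19, 4.41 and 5.20 on day 14. All 3 day 14 libraries were lower, but the log2 change was -0.37 (SE 0.49, 95% interval -1.46 to 0.73) and the adjusted p 0.744. Of the 7 tested genes of the transactivation list, which adds RFX, NF-Y and Creb1, 0 passed, and their log2 changes ran from -0.45 to 1.01.

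The interferon gamma route that induces Ciita held 3 genes that fell among 7 tested, beside 1.79% of all genes tested. All 3 calls were lost with a filter of 5 CPM (adjusted p 0.0595 to 0.0704, limma) or none (0.138 to 0.150). Ifng, the cytokine itself, read 35.9, 36.4 and 37.6 RPKM on day 7 and 3.57, 4.95 and 5.79 on day 14. The log2 change was -2.73 (SE 0.50, adjusted p = 0.0156), with a wide gap between the days. The mean of Ifng, 21.2 CPM, was just above the filter of 20 CPM, and its day 7 values carried it past that filter. Without day 7 replicate 3 Ifng was not among the tested genes. Ifngr1, a receptor chain, fell by 1.34 on the log2 scale (adjusted p = 0.0160) and Irf1, a transcription factor acting on the Ciita promoter, by 1.20 (adjusted p = 0.0218). The second receptor chain Ifngr2 (1.14) and the receptor-bound kinases Jak1 (-0.69) and Jak2 (0.044) did not pass. T cells are a main source of Ifng, and 5 of the 10 CD8 T cell markers fell in the same libraries. With no filter on low values all 5 of these marker calls were lost (adjusted p 0.1173 to 0.2127, limma). With a filter of 5 CPM those of Cd3d (0.0884), Trac (0.05492) and Lck (0.0702) were lost, and those of Cd8b1 (0.04151) and Cd2 (0.04807) held. The part of the lower T cell markers in the Ifng value was not tested.

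In endosomal processing, Ctsl, which encodes cathepsin L, was the 1 of 7 tested genes that rose, beside 1.48% of all genes tested. Its call was lost with a filter of 5 CPM (adjusted p 0.0660, limma) or none (0.161). It read 17.1, 17.2 and 39.3 RPKM on day 7 and 91.8, 79.1 and 86.1 on day 14, a log2 change of 1.68 (SE 0.30, adjusted p = 0.0149). Ctss, the protease that trims the invariant chain in presenting cells, stood at 575 ± 34.3 (SD, n = 2) and 669 ± 11.8 (SD, n = 3), a log2 difference of 0.22 (adjusted p = 0.437). Ifi30, which reduces disulfide bonds of antigens, gave 0.42 (adjusted p = 0.537) and Lgmn, an asparaginyl endopeptidase, 0.80 (adjusted p = 0.157). All 7 log2 changes of the list were above 0, with a median of 0.42 against 0.16 for all genes.

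Among the binding partners, Cd44, which forms a receptor complex with Cd74, rose from 24.1, 22.7 and 32.3 RPKM on day 7 to 58.4, 62.7 and 59.1 on day 14, a log2 change of 1.10 (SE 0.24, adjusted p = 0.0354). That call was lost under median-of-ratios scaling (adjusted p = 0.0662) and without day 14 replicate 1 (0.0520) or 2 (0.0509). The other 2 tested partners, Cd4 (-0.89) and Mif (0.29), did not pass, nor did the 2 tested costimulatory genes, Cd86 (-0.43) and Cd40 (-1.22). Over all pathway lists 5 of 26 tested genes passed, 2 rising and 3 falling, beside 3.27% of all genes. With no filter on low values or with a filter of 5 CPM, where more genes are tested together, 0 of the 5 passed (adjusted p 0.138 to 0.193 and 0.0595 to 0.103).

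**Figure D5:**
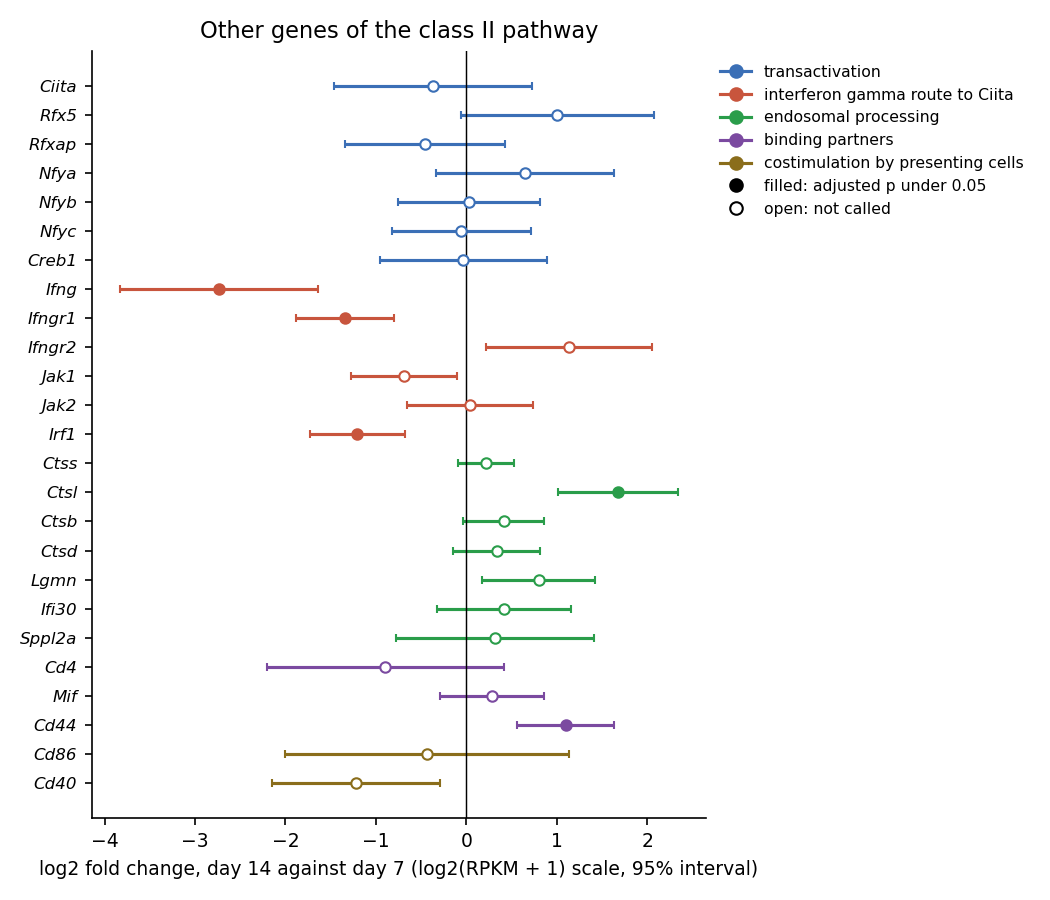
Log2 change from day 7 to day 14 with its 95% interval for tested genes of the class II pathway lists, coloured by list, filled where the adjusted p was under 0.05. Ifng, Ifngr1 and Irf1 lie below 0, and Ctsl and Cd44 above 0.

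The 5 non-member genes whose profile lay nearest to the mean profile of the 5 tested members, over 5 samples, were Arhgap26, Macf1, Rpl34, Myl6 and Pfn1, with root mean square log2 distances of 0.0217 to 0.0472. The members themselves lay 0.0857 (H2-Ab1) to 0.385 (H2-DMb1) from their own mean. Of these 5 genes Myl6 passed the test (log2 change -0.55, adjusted p = 0.0378).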

How the data were processed

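RNA of CD8a bead-selected cells from B16 tumours was sequenced as paired, strand-specific libraries. Per the submitters' processing notes, the tools included Trimmomatic 0.36, Subread 1.5.1 and featureCounts, and the build was GRCm38. Neither the aligner nor the counting strand nor the use of molecular identifiers is given in the sources used here. The deposited values are RPKM, which the authors made from reads per gene and the gene length given per the file headers. Multiplied by length, 100% of values came out as whole reads within 0.001, the largest deviation being 4.1e-05.

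The 9 members, the pathway and marker lists, the motifs and the ratios were chosen with earlier results of these data known. Genes averaging at least 20 CPM were tested with limma 3.58.1 in R 4.3.3 on log2(RPKM + 1), which understates the change of low genes. Day 14 (3 samples) was compared with day 7 (2 samples) with precision weights by day from a loess trend (span 0.3) of variance on the mean over all samples, and Benjamini-Hochberg adjustment at 0.05. The median residual SD of the trend was 0.624 (log2) on day 7 and 0.166 on day 14. The form of the trend was chosen on simulated data, after another form had been run on the real data. Counts of false calls are not given here for either form. The simulation drew from the same kind of trend and is not an independent test of it. Exact permutation tests covered ratios.

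All 9 members are named. Of the pathway lists, every gene that passed is named, and Ciita, Ctss, Ifi30 and Lgmn always are. A result for 1 gene of the pathway lists is not reported here. Other genes are given as counts and ranges, and those named beyond this rule were chosen after their values were seen. Alternatives covered the pseudocount, the filter, weights, scaling, single libraries, the replicate number, the variance trend and each left-out replicate.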

Additional observations from a re-analysis of the deposited data

How the results depend on the processing

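The number of genes that passed was 219, and it was 1561 with 6 libraries counted singly, 1163 with these and the replicate number as a block, 58 with no filter, 84 with a filter of 5 CPM, 1011 without weights, 2145 by limma-voom on recovered reads, and 196 to 3902 when a replicate was left out. Without day 7 replicate 3 it was 3902. With the variance trend of each day alone it was 327. Falling genes were 54.8% of the 219 that passed and 75% under median-of-ratios scaling, which moved the median log2 change of all genes from 0.16 to -0.02. Members that fell numbered 1, and 3 with 6 libraries counted singly without or with the replicate block, without weights, with the variance trend of each day alone, under median-of-ratios scaling and by limma-voom. They numbered 2 with a pseudocount of 0.1 or 5, and 1 to 2 leaving out a replicate other than day 7 replicate 3. Pathway genes that passed numbered 5, and 12 counted singly, 11 singly with the block, 0 with no filter and 0 with 5 CPM, 11 without weights, 16 by limma-voom and 4 to 15 leaving out a replicate.

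The replicate numbers did not pair the samples (correlations of deviations -0.034 to 0.042), and the block is given only here. It left the log2 changes of H2-Ab1 (-0.58) and Cd74 (-0.65) at those of 6 single libraries, with adjusted p of 0.0156 and 0.0220. With the block the call of the macrophage marker Mrc1 was lost (adjusted p = 0.0571, limma). Scaling to CD8 T cell markers lifts every gene (median of all genes 1.87) and so put H2-Aa at 1.16, H2-Ab1 at 1.30, H2-Eb1 at 0.93 and Cd74 at 1.32, below that median. H2-DMb1 turned to -0.063 without day 7 replicate 3 (-0.063 to 0.23 leaving out a replicate), -0.048 under median-of-ratios and -0.42 scaled to macrophage markers.

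Leaving out a replicate, the log2 ratio of Cd74 to the classical chains ran from -0.15 to 0.16, H2-DMb1 to H2-Ab1 from 0.43 to 0.88, H2-DMb1 to H2-Eb1 from 0.82 to 1.22 and H2-DMb2 to H2-DMb1 from -2.80 to -1.98. Members over CD4 T cell markers ran from -0.29 to -0.054, B cell from -0.36 to 0.93, dendritic cell from -0.33 to 0.31, plasmacytoid dendritic cell from -0.65 to 0.85, macrophage from -1.28 to -1.16 and endothelial from -0.52 to -0.14. In the dendritic cell, plasmacytoid dendritic cell and B cell ratios and that of Cd74, leaving out day 7 replicate 3 turned the sign. The cause of these shifts was not tested. Depth limits H2-Oa, with 2 reads in all, and H2-Ob, with 4 to 32 reads in 4 of the libraries.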

Other observations

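The class II region of chromosome 17 also holds genes of the class I pathway, which lie between H2-DMb1 and H2-Ob. Tap2, a chain of the transporter that carries peptides into the endoplasmic reticulum, read 44.9, 47.9 and 78.2 RPKM on day 7 and 19.3, 20.4 and 18.7 on day 14, and fell by 1.58 on the log2 scale (SE 0.28, adjusted p = 0.0145, limma). Psmb8, an immunoproteasome subunit, fell by 1.13 (SE 0.25, adjusted p = 0.0354), where 1.79% of all genes tested fell. Models on the other strand overlap both, Gm15821 and Gm20496 for Tap2 and Gm20496 for Psmb8, and the models of Tap1 and Psmb9 overlap each other on opposite strands. Since the strand setting is not given, reads of overlapping models cannot be told apart. Tap1, the partner chain of Tap2, stood at -1.40 (adjusted p = 0.0739) and Psmb9, a further immunoproteasome subunit, at -1.18 (adjusted p = 0.0914), neither past the test. For both, all 3 day 14 libraries were below all 3 day 7 libraries, as for 17.8% of all genes tested. Brd2, a bromodomain gene in the same region, was at -0.30 (adjusted p = 0.541) with overlapping days. These genes were named after their values were seen.

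H2-Eb2, a further class II β chain gene beside H2-Eb1, was below the filter at 0.227, 0 and 1.11 RPKM on day 7 and 2.03, 0.649 and 3.03 on day 14, with overlap between the days.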
